A study of Mus musculus with 33 samples.

Results

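The regions described here were 2332 stretches of open chromatin in mouse endothelial cells that were called with 1 added copy of Runx1, and not without it, at both embryonic day 9.5 (E9.5) and E13.5. They were chosen from the ATAC-seq peak lists: a peak of the E9.5 1Runx1 list was kept when it overlapped no peak of the E9.5 Ctrl list and none of the E13.5 Ctrl list by even 1 base, but did overlap a peak of the E13.5 1Runx1 list. Of 96532 peaks in the E9.5 1Runx1 list, 14896 had no E9.5 Ctrl peak, 10903 of these had no E13.5 Ctrl peak either, and 2332 (2.42% of the list) recurred at E13.5 with 1Runx1. The other 8571 were gained at E9.5 alone.

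Endothelial cells had been sorted as CD41-, CD45-, Ter119-, CD31+, VEC+ and cKIT lo/+ out of E9.5 embryos, E13.5 fetuses (both whole) and the liver of adult mice 4 to 6 weeks old. Runx1 came from a conditional knock-in allele (CKI): 1Runx1 cells carried Cre with CKI/+ and 2Runx1 cells carried Cre with CKI/CKI, while Ctrl cells were CKI/+ at E9.5 and CKI/CKI or CKI/+ at E13.5 and in the liver. The labels name no Cre in Ctrl, so Cre and added Runx1 cannot be told apart, and no source used here names the driver of Cre. All groups, Ctrl included, had been exposed to 2 mg tamoxifen, given to females 24 hours before harvest of the embryos and, for liver, by gavage at a time the labels do not state. The strain was C57BL/6J-129Sv/J, crossed with B6C3F1 at E9.5, and only the E9.5 females had been superovulated (5 IU of each gonadotrophin), so the embryonic stages differ in cross and hormone treatment as well as in age. ATAC-seq, which marks open chromatin by transposase insertion, had 2 libraries in each of 7 groups, but the authors deposited 1 peak list per group, and without replicates no test was made on peaks. RNA-seq had 2 libraries per group except E13.5 Ctrl, which had 1, and H3K4me1, a histone mark of enhancers, was measured at E13.5 in Ctrl and 2Runx1.

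RUNX1 is a DNA-binding transcription factor that pairs with the non-DNA-binding partner CBFβ and recognises the letters TGTGGT. In the embryo it is required in hemogenic endothelium, the endothelial cells that turn into blood. Most endothelium expresses little of it, and forced RUNX1 in such cells is a common way to ask which closed sites the factor can open.

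The library labels held for Runx1 itself: its RNA level, in RPKM (reads normalised for gene length and library size), was between 0.904 and 1.53 in the 5 Ctrl libraries and between 14.9 and 28.9 in the 6 embryonic libraries with added copies. In Liver 2Runx1 it was 78.1 and 78.4, above every embryonic library. The 2 copies at E13.5 gave 23.9 ± 1.75 RPKM (SD, n = 2) and the 1 copy gave 26.3 ± 3.65 (SD, n = 2), so the level was not higher with the second copy. All 13 RNA libraries held between 37754246 and 44540403 reads over genes, as recovered from the RPKM values. The 7 endothelial markers (Pecam1, Cdh5, Kdr, Tek, Emcn, Egfl7, Esam) summed to between 1511 and 1991 RPKM in every embryonic library and none was below 107.9 RPKM. Of the 7, Tek alone was called at E9.5 with 1Runx1 and was lower (log2 difference −0.36, limma adjusted p = 0.0231). At E13.5 with 1Runx1 Tek was lower again (−0.39, limma adjusted p = 0.0131). There Cdh5, Egfl7 and Esam were higher (0.24, 0.24 and 0.31, limma adjusted p = 0.0429, 0.0175 and 0.0148). With 2Runx1 at E13.5, 0 of the 7 were called. Macrophage markers summed to 0.328 to 0.507 RPKM in E9.5 Ctrl and 0.772 to 1.1 in E9.5 1Runx1, where Lyz2 was called higher (0.53, limma adjusted p = 0.0401). Leukocyte markers summed to 122.2 to 122.4 RPKM in E9.5 Ctrl and 145.7 to 147.1 in E9.5 1Runx1. Most of that was Lcp1, at 98.3 to 99.3 and 113.3 to 116.2 RPKM. Ptprc and Adgre1 were listed at 0 in all 4 E9.5 libraries, while Hbb-bt was at 0 in all 13 RNA libraries. Between the lone E13.5 Ctrl library and E13.5 1Runx1 the sums of other cell types' markers differed in both directions. In Ctrl, hepatocyte markers summed to 136.3 against 52.0 to 57.7 RPKM, erythroid markers to 62.5 against 22.5 to 39.3, megakaryocyte markers to 29.2 against 12.4 to 19.3 and macrophage markers to 16.7 against 8.56 to 9.20. The sum of the leukocyte markers was lower in Ctrl, at 132.1 against 154.4 to 166.2 RPKM, and so was Ttr of the hepatocyte list, at 5.80 against 19.8 to 22.7. Within the leukocyte list Lcp1, which made up most of the sum, Laptm5 and Coro1a were lower in Ctrl. Cd53 (1.19 against 0.272 to 0.419 RPKM) and Ptprc (0.317 against 0.0908 to 0.113) were higher in Ctrl. The part of these markers in the E13.5 results was not tested.

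Few of the regions lay at gene starts, but those that did can be read as sequence. Of the 2332 regions, 44 overlapped 46 promoter windows of the RefSeq table (GRCm38.p6), each window running from 250 bases before to 50 bases after an annotated start. Long noncoding RNAs had 32 of the windows (69.6%) and protein-coding genes 14. The share of long noncoding RNAs was 50.7% under peaks gained at E9.5 alone, 17.1% under any E9.5 1Runx1 peak and 35.3% of all windows. The letters TGTGGT, on either strand, stood in 17 of the 46 windows (37.0%, 95% Wilson interval 24.5 to 51.4). The same letters stood in 33 of 144 windows under peaks gained at E9.5 alone (22.9%), in 1868 of 15548 under any E9.5 1Runx1 peak (12.0%) and in 5506 of all 32851 windows (16.8%). In 15 of the 17 windows, which lay under 14 distinct regions, a match was within the bases that the region covered. The intervals count windows as separate, although Gm41331 and Gm35363 each had overlapping windows under the same region.

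The opposite set was taken as a comparison after the data had been seen: 1572 peaks of the E9.5 Ctrl list that overlapped an E13.5 Ctrl peak and no 1Runx1 peak at either stage. They covered 30 promoter windows, and 1 of these (3.33%, interval 0.591 to 16.7) held TGTGGT. Base composition differed between some of the sets: median GC was 50.2% under the gained regions, 50.7% under those gained at E9.5 alone, 50.3% under the opposite set and 61.7% under any E9.5 1Runx1 peak. Among windows below 60% GC the shares were 15 of 42 (35.7%) under the gained regions, 22.9% under peaks gained at E9.5 alone, 15.9% under any E9.5 1Runx1 peak and 19.8% over all windows. The longer TGTGGTT, which contains TGTGGT, stood in 11 of 46 windows (23.9%), against 10.4% under peaks gained at E9.5 alone and 5.27% of all windows. Of the other 8 motifs searched on both strands, the ETS letters AGGAAG stood in 54.3% of the windows under gained regions against 50.0% under the opposite set and 35.4% of all windows. The FOX letters TGTTTAC stood in 0 of 46 (interval 0 to 7.71) against 3.65% of all windows. A SOX motif stood in 17.4%, against 30.0% under the opposite set and 10.7% of all windows. The AP-1, GATA, E-box, SMAD and TEAD motifs stood in 6.52%, 10.9%, 19.6%, 23.9% and 2.17%. Over all windows their shares were 7.81%, 11.2%, 16.3%, 21.0% and 3.85%.

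**Figure D1:**
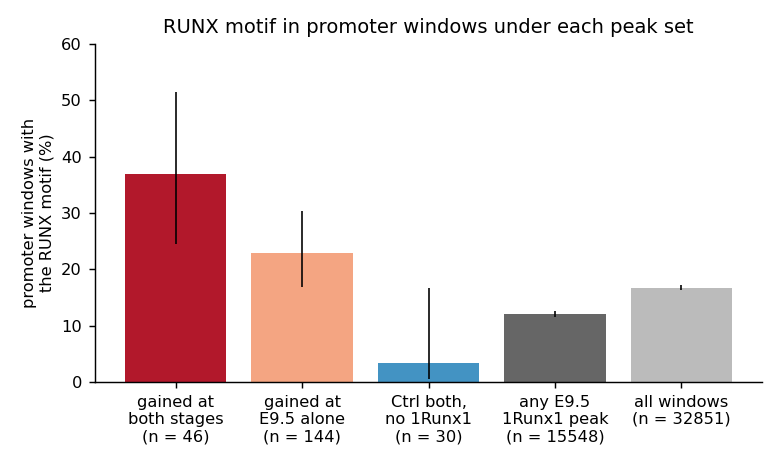
Share of promoter windows (300 bases) that hold TGTGGT on either strand, with 95% Wilson intervals, under each set of peaks and over the whole table. The bar for regions gained at both stages stands at 37.0% of 46 windows and that for Ctrl peaks without a 1Runx1 peak at 3.33% of 30.

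The 6 windows below show what these promoters look like: the highest regions by E9.5 fold enrichment with a match under the region (Gm41331 and Gm42217), the protein-coding genes with such a match (Gpr37l1, Gpr18 and Plppr4), and the highest protein-coding one without the letters (Nlrp3). Each is read 5′ to 3′ in the direction of the gene, and capitals mark TGTGGT or its reverse complement ACCACA.
Gm41331: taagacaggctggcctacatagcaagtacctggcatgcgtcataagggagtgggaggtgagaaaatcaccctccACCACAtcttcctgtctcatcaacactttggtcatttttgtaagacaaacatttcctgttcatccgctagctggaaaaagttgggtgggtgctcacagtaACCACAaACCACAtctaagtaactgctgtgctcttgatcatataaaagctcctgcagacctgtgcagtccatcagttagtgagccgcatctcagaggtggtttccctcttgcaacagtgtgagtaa
Gm42217: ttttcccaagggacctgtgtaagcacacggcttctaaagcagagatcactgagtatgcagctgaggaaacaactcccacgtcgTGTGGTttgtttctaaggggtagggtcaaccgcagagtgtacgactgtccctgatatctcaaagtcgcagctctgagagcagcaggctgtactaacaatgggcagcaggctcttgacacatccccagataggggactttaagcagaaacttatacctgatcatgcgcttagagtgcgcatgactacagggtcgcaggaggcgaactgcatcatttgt
Gpr37l1: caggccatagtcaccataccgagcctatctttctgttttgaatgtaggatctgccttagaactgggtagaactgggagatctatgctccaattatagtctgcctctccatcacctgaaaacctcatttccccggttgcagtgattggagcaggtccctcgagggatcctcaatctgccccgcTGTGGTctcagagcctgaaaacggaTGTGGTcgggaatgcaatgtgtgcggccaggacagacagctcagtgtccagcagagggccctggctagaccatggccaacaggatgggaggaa
Gpr18: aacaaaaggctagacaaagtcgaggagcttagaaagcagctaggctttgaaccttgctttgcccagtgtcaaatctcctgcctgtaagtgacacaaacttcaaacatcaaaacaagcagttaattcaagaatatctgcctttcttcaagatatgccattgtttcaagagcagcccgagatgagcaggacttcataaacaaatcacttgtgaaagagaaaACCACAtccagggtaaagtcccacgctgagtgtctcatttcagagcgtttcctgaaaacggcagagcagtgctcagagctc
Plppr4: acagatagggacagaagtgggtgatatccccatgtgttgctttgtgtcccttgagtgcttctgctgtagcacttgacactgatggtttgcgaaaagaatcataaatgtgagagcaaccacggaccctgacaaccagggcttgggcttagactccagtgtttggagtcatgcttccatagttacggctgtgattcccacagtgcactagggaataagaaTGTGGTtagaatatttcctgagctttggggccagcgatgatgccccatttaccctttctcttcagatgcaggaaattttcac
Nlrp3: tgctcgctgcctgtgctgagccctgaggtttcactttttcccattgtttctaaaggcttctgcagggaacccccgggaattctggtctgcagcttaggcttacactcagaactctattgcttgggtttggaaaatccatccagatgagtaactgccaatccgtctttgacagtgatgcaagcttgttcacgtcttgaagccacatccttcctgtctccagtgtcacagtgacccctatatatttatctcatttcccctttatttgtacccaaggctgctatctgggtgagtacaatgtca

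The Gm41331 window (chr15:60141661-60141960, plus strand) lay entirely under a region with a fold enrichment over background, as the authors' peak caller gave it, of 18.1 at E9.5 and 13.4 at E13.5 with 1Runx1. It held 3 matches, which began at bases 75, 175 and 182 of the window. A second annotated start of the same gene gave an overlapping window under the same region. The Gm42217 window (chr3:40480656-40480955, plus strand) also lay entirely under its region, with fold enrichments of 15.9 and 9.36 and 1 match that began at base 84. Both genes are long noncoding RNAs that the RNA table did not list by these symbols.

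Gpr37l1 encodes an orphan G protein-coupled receptor of glia, and its window (chr1:135167632-135167931, minus strand) held 2 matches that began at bases 183 and 208, both under a region of fold enrichment 7.38 at E9.5. Gpr18, a G protein-coupled receptor of lymphocytes, had 1 match at base 220 (chr14:121915839-121916138, minus strand), and Plppr4, a phospholipid phosphatase-related protein of neurons, had 1 at base 219 (chr3:117360827-117361126, minus strand). Nlrp3, the sensor of an inflammasome of myeloid cells, had none (chr11:59541319-59541618, plus strand), although its region covered the whole window with fold enrichments of 7.38 and 11.9. RNA was low at these starts: the highest level in any of the 13 libraries was 0.0105 RPKM for Gpr37l1, 0.492 for Gpr18, 0.0626 for Plppr4 and 0.217 for Nlrp3. Of the 14 protein-coding genes, 4 passed the filter on low values (Tbc1d5, C5ar2, Zcchc14 and Pigv), and the lowest limma adjusted p of the 4 in an embryonic comparison was 0.0876 (Pigv at E13.5 with 1Runx1). Pigv, an enzyme of GPI anchor synthesis, was lower in liver with 2Runx1 (−0.66, limma adjusted p = 0.00113).

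The values that chose the regions are given as a description. Their E9.5 fold enrichment ran from 1.82 to 25.2, with a median of 4.72 and quartiles of 3.84 and 6.41, against a median of 7.15 for all E9.5 1Runx1 peaks and 4.03 for peaks gained at E9.5 alone. At E13.5 with 1Runx1 the overlapping peak had a median fold of 4.37. Only 411 regions (17.6%) reached the median fold of the whole E9.5 1Runx1 list. Their median −log10 q was 7.50 against 18.7 for the list, and their median length was 180.5 bases against 299. The summits at the 2 stages lay a median of 34 bases apart, and 65.1% of pairs were within 50 bases.

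The absence of a Ctrl peak had a margin that varied. The median distance to the nearest Ctrl peak of either stage was 2838.5 bases, and 399 regions (17.1%) had one within 500 bases. At the edge of the rule, 7 regions lay within 10 bases of a Ctrl peak, with a median fold of 3.81. Just outside it, 12 peaks of both 1Runx1 lists overlapped a Ctrl peak by 1 to 10 bases, with a median fold of 3.54.

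Of the 10 highest regions, 9 lay over 10 kb from a gene start, and each of the 10 was also open with 2 copies. The highest, at chr5:4246009-4246672, was 54.0 kb from the start of Mterf1b, and its fold enrichment was 25.2 at E9.5, 21.9 at E13.5 with 1Runx1 and 18.9 at E13.5 with 2Runx1. The region at chr8:23645901-23646513, with a fold of 20.4 at E9.5, lay 1.12 kb from the start of Zmat4. A further 7, with folds of 19.0 to 22.5 at E9.5, lay 10.4 to 180.9 kb from the nearest start (Czib, Cldn11, Erich3, Adamts9, Trio, Mir6343 and Mast4). At E13.5 with 2Runx1 the fold of all 10 was between 11.5 and 20.3, and 1 of the 10, that near Zmat4, overlapped an H3K4me1 region of 2Runx1.

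Distance from genes set the regions apart from the list they came from. They lay within 1 kb of a start in the RefSeq promoter table in 2.53% of cases, against 13.9% of all E9.5 1Runx1 peaks, 3.15% of peaks gained at E9.5 alone and 3.50% of the opposite set. The median distance to a start, which also counted both ends of genes that the promoter table lacked, was 27.7 kb, against 17.7 kb for the list. A gene body held 57.5% of them, against 59.5% of the list. They were found on 20 chromosomes, from 1.90% of the E9.5 1Runx1 peaks of X to 2.87% of those of chromosome 10.

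The E13.5 2Runx1 libraries had no part in the choice of regions. Of the 2332, 1228 (52.7%, 95% Wilson interval 50.6 to 54.7) overlapped a peak of that list, and 1104 did not. The background was 70.8% of all E9.5 1Runx1 peaks. The count was 686 of 8571 (interval 7.45% to 8.60%) for peaks gained at E9.5 alone and 301 of 1572 (19.1%, interval 17.3 to 21.2) for the opposite set. The gained regions had to have an E13.5 1Runx1 peak and both comparison sets had to lack one, so the order of the sets in this list of the same stage is a description and no test. The intervals cover counting error only, and the E13.5 2Runx1 list was the shorter one at its stage, with 80857 peaks against 100268 for 1Runx1.

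**Figure D2:**
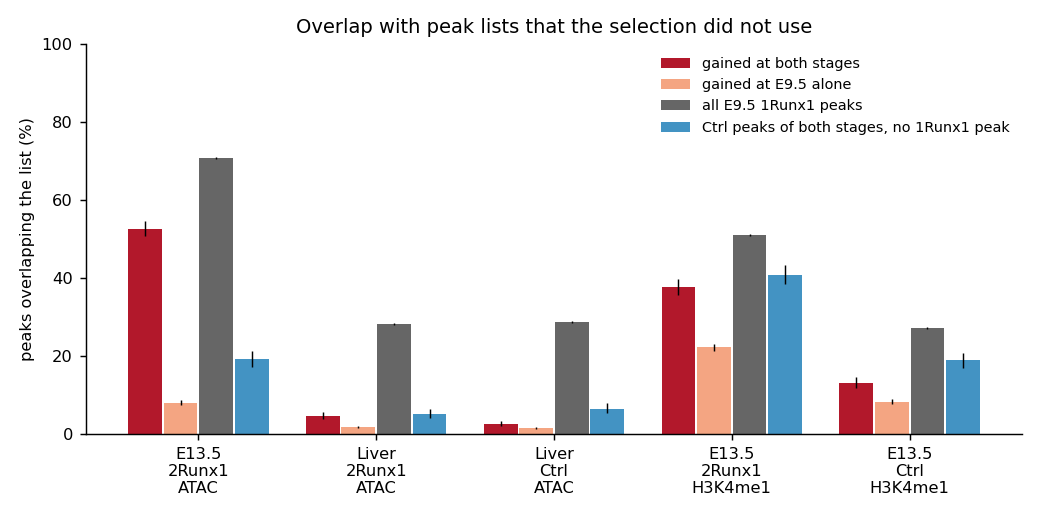
Percent of peaks in 4 sets that overlap each of 5 lists the choice of regions did not use, with 95% Wilson intervals. Regions gained at both stages stand at 52.7% for E13.5 2Runx1 ATAC and below 5% for both liver lists.

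Recurrence rose with peak strength. When the regions were split into 5 bands of near equal size by E9.5 fold enrichment, 34.7% of the lowest band (fold under 3.59) overlapped an E13.5 2Runx1 peak, then 40.9%, 47.9% and 55.5%, and 81.8% of the top band (fold of at least 6.79). All E9.5 1Runx1 peaks in the same fold bands gave 34.0%, 41.4%, 48.4%, 61.7% and 90.4%. Peaks gained at E9.5 alone gave 5.75% in the lowest band and 21.7% in the top one. In the lower 3 bands the gained regions and all E9.5 1Runx1 peaks differed by less than 1 percentage point. The gained regions had to have an E13.5 1Runx1 peak. Peaks gained at E9.5 alone, which had to lack one, made up 3063 of the 9898 listed peaks in the lowest band. The closeness in the lower bands depends on this make-up of the list and is a description and no test.

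H3K4me1 went the other way within the set. An H3K4me1 region of E13.5 2Runx1 overlapped 879 of the 2332 (37.7%; background 51.0% of all E9.5 1Runx1 peaks), and one of E13.5 Ctrl overlapped 307 (13.2%; background 27.2%). The 2Runx1 list was the longer one, with 88344 regions covering 88.8 megabases against 48795 covering 33.4 in Ctrl, and the part of list length in the 2 shares was not tested. An H3K4me1 region of 2Runx1, and none of Ctrl, overlapped 25.3% of the gained regions, 25.5% of all E9.5 1Runx1 peaks, 24.0% of the opposite set and 15.0% of peaks gained at E9.5 alone. With rising fold the share in the Ctrl list fell from 25.5% in the lowest band to 4.90% in the top band, and in the 2Runx1 list from 50.3% to 29.2%. Over all E9.5 1Runx1 peaks of the same bands the Ctrl share was 28.5% in the lowest and 30.9% in the top band. Peaks gained at E9.5 alone fell with fold as well, from 14.9% to 1.09% in the Ctrl list and from 32.6% to 10.9% in the 2Runx1 list. The lowest band also lay nearer to Ctrl peaks, with 32.1% within 500 bases of one against 7.06% of the top band, and its regions were shorter, with a median of 143 bases against 310.5; the part of either in the H3K4me1 shares was not tested. The labels of the 2Runx1 H3K4me1 input and of 1 ChIP library name each other's track, so the list was read as that of the ChIP.

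**Figure D3:**
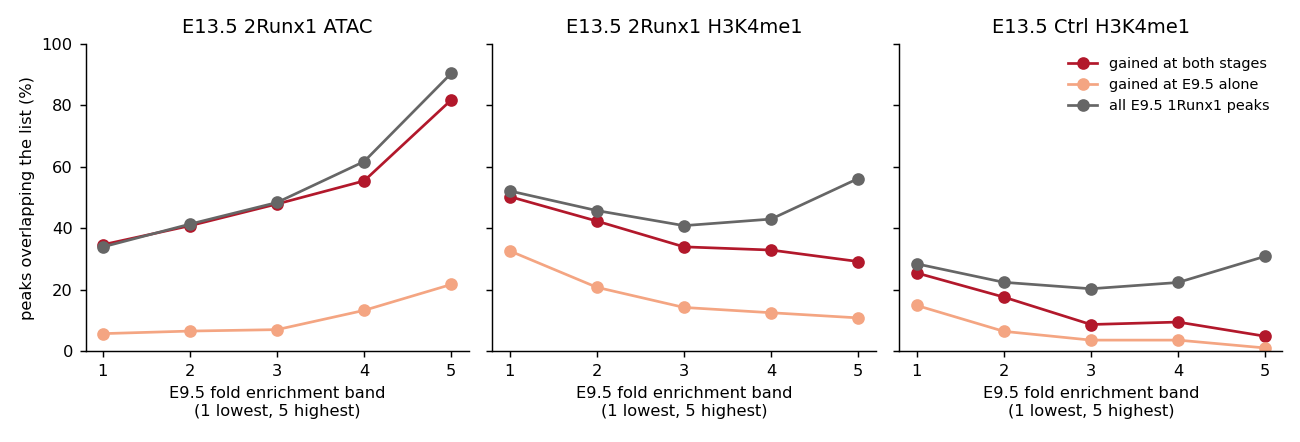
Percent of peaks overlapping each of 3 E13.5 lists, by band of E9.5 fold enrichment (5 bands of near equal size over the regions gained at both stages). For regions gained at both stages the ATAC share climbs from 34.7% to 81.8% while the share in Ctrl H3K4me1 falls from 25.5% to 4.90%.

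Adult liver endothelium had few of these regions. The Liver 2Runx1 list held 110 of them (4.72%; background 28.1%) and the Liver Ctrl list held 61 (2.62%; background 28.7%), in lists of 39469 and 39019 peaks. The comparison sets were low as well: 1.79% and 1.44% of peaks gained at E9.5 alone, and 5.09% and 6.49% of the opposite set. The background also varied with fold. In the lowest band 5.56% of all E9.5 1Runx1 peaks overlapped a Liver 2Runx1 peak, against 3.21% of the gained regions. In the top band the shares were 43.5% and 6.08%. Of the 110 regions in the Liver 2Runx1 list, 73 had no Liver Ctrl peak. A Liver 2Runx1 peak, and no Liver Ctrl peak, overlapped 3.13% of the gained regions and 4.06% of all E9.5 1Runx1 peaks. The shares were 1.05% for peaks gained at E9.5 alone and 1.53% for the opposite set.

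In all, 48 regions (2.06%) were open in every list with added Runx1 and in no Ctrl list. The opposite count, Ctrl peaks of both stages that the Liver Ctrl list held and no list with added Runx1 did, was 31 of 1572 (1.97%), so the 2 shares were close. Examples, chosen after their values were seen, were a region at chr9:8017228-8017744, 12.9 kb from the start of Yap1, a co-activator of the Hippo pathway, with fold enrichments of 15.1, 11.2, 12.5 and 6.84 in E9.5 1Runx1, E13.5 1Runx1, E13.5 2Runx1 and Liver 2Runx1. A region inside Jam2, which encodes a junctional adhesion molecule of endothelium (chr16:84814614-84814869), had 10.7, 7.18, 7.27 and 4.52 in the same lists. A region 6.20 kb from the start of Axl, a receptor tyrosine kinase (chr7:25794803-25795053), had 4.72, 3.43, 4.51 and 4.79. An H3K4me1 region of 2Runx1 overlapped 23 of the 48.

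Each region was assigned to the gene with the nearest start within 100 kb, which 1922 of the 2332 had. This named 1719 genes, of which 1045 passed the filter on low values (at least 1 RPKM in 2 or more libraries) and 674 did not. Nearness does not show that a region acts on a gene. Differences are given as log2(RPKM + 1), which understates the change of low genes, with adjusted p-values from limma over all 12546 genes tested. In bulk RNA a change in the number of cells of a type and a change in RNA per cell cannot be told apart.

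At E9.5, RNA of 19 of the 1045 nearest genes was higher with 1Runx1 (1.82%; background 0.861% of all genes tested) and of 5 was lower (0.478%; background 0.327%). Among the 327 tested genes with a start within 10 kb of a region, 10 were higher (3.06%) and 2 lower. The share of higher genes was 1.15% near peaks gained at E9.5 alone, 0.513% near the opposite set and 0.910% near any E9.5 1Runx1 peak. The count fell to 8 without E9.5 1Runx1 replicate 2, 7 without E9.5 Ctrl replicate 1 and 8 without E9.5 Ctrl replicate 2; the background fell with it, to 0.359%, 0.327% and 0.295%, against 0.766%, 0.670% and 0.766% near the regions. The median log2 difference was 0.01 both for the nearest genes and for all genes.

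At E13.5 with 1Runx1, 66 of the 1045 nearest genes were higher (6.32%; background 6.34%) and 33 lower (3.16%; background 4.03%), which is the level of all genes. With 2Runx1 at E13.5, 4 were higher (0.383%; background 0.151%) and 1 was lower (0.0957%; background 0.120%). Both comparisons share the single E13.5 Ctrl library, and in a fit of the 5 E13.5 libraries alone, with few residual degrees of freedom, limma called none in either, although 98 higher and 60 lower genes near the regions had an unadjusted p under 0.05 with 1Runx1. In the liver with 2Runx1, 172 were higher (16.5%; background 17.1%) and 110 lower (10.5%; background 8.14%). The 1-copy difference itself was larger at E13.5 than at E9.5 for 15 nearest genes (1.44%; background 1.16%) and smaller for 11 (1.05%; background 1.10%).

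Of the nearest genes, 9 (0.861%; background 0.534%) were called in the same direction at both stages with 1Runx1: Itgb3, Stat4, Alox5, Ltc4s, Art4, Serpine2, Dok1 and Mmd rose and Akap12 fell. The first 4 were also the 4 called higher with 2Runx1 at E13.5. The regions near the 9 had E9.5 fold enrichments of 2.69 to 6.78, except that of Alox5, at 14.8.

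**Figure D4:**
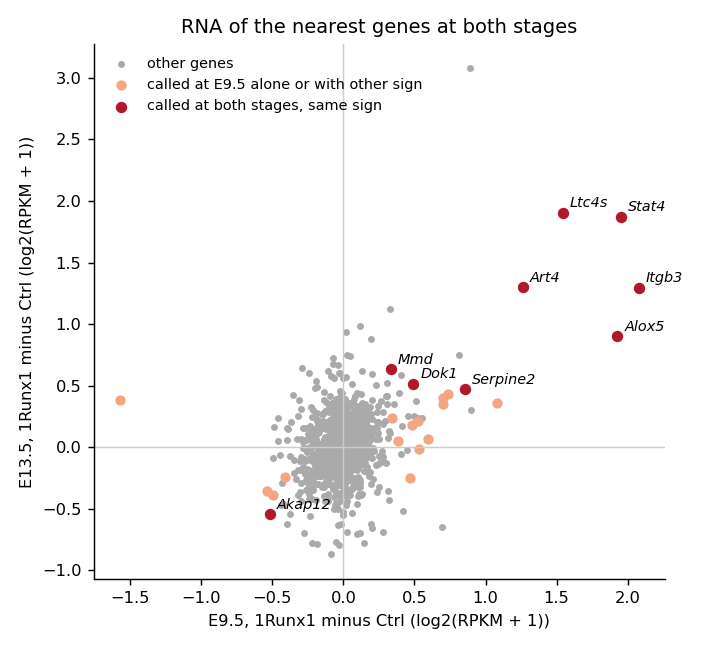
Difference in log2(RPKM + 1) between 1Runx1 and Ctrl at E9.5 (x axis) and E13.5 (y axis) for the 1045 tested genes nearest to a region. The 9 genes called at both stages in the same direction are named; the highest point at E13.5 is Mmp9, 0.89 at E9.5 and 3.08 at E13.5, which was called at E13.5 and not at E9.5.

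Itgb3 encodes the β3 integrin subunit, which is part of the vitronectin receptor of endothelium and of the fibrinogen receptor of platelets. It had 2 regions inside the gene: chr11:104622559-104622852, with fold enrichments of 2.69 at E9.5 and 3.34 at E13.5 and no E13.5 2Runx1 peak, and chr11:104641002-104641120, with 5.64 and 6.24 and an E13.5 2Runx1 peak of 5.21 under an H3K4me1 region of 2Runx1. Its RNA was 1.19 and 0.938 RPKM in E9.5 Ctrl and 7.69 and 7.71 in E9.5 1Runx1, then 0.862 in E13.5 Ctrl, 3.77 and 3.38 in E13.5 1Runx1, and 5.15 and 6.62 in E13.5 2Runx1. Libraries with added Runx1 lay above Ctrl at both stages, which is a description with 1 or 2 libraries per group. The log2 difference was 2.08 ± 0.11 (SE; limma adjusted p = 5.15e-06) at E9.5, 1.30 ± 0.13 (limma adjusted p = 0.000575) at E13.5 with 1Runx1 and 1.88 ± 0.13 (limma adjusted p = 0.000176) with 2Runx1. In liver Itgb3 RNA went from 6.57 and 7.06 to 48.2 and 44.4 RPKM. Neither region was in a liver list, and those lists were shorter (39469 peaks with 2Runx1 against 96532 for E9.5 1Runx1). The part of the regions in the RNA was not tested. The 4 megakaryocyte and platelet markers summed to 6.36 to 6.49 RPKM in E9.5 Ctrl and 6.61 to 9.44 in E9.5 1Runx1, with limma adjusted p of at least 0.676 for the 3 tested at E9.5, while Pf4 and Ppbp were lower at E13.5 with 1Runx1.

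Stat4, a transcription factor of cytokine signalling, had 1 region inside the gene, 3.22 kb from its start (chr1:52011381-52011532), with fold enrichments of 6.78, 4.68 and 4.70 in E9.5 1Runx1, E13.5 1Runx1 and E13.5 2Runx1. RNA was 0.442 and 0.260 RPKM in E9.5 Ctrl and 4.11 and 4.33 in E9.5 1Runx1. At E13.5 it was 0.311 in Ctrl, 4.06 and 3.55 with 1Runx1 and 4.03 and 4.01 with 2Runx1, so all libraries with added Runx1 lay in a narrow range far from Ctrl. The log2 difference was 1.95 ± 0.09 (SE; limma adjusted p = 4.39e-06) at E9.5 and 1.87 ± 0.12 (limma adjusted p = 2.16e-05) at E13.5 with 1Runx1. The liver gave 0.0198 and 0.0865 RPKM in Ctrl and 3.36 and 3.54 with 2Runx1.

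Alox5 and Ltc4s encode enzymes that act one after the other toward cysteinyl leukotrienes, inflammatory lipids made mainly by leukocytes. The Alox5 region, inside the gene and 5.16 kb from its start (chr6:116455798-116456243), was 446 bases long with fold enrichments of 14.8, 8.33 and 13.1 in the E9.5 1Runx1, E13.5 1Runx1 and E13.5 2Runx1 lists, and an H3K4me1 region of 2Runx1, but none of Ctrl, overlapped it. Alox5 RNA was 0.536 and 0.411 RPKM in E9.5 Ctrl, 4.38 and 4.81 in E9.5 1Runx1, 0.217 in E13.5 Ctrl, 1.02 and 1.56 in E13.5 1Runx1 and 1.41 and 1.23 in E13.5 2Runx1. Libraries with added Runx1 lay above Ctrl at both stages, again a description with 1 or 2 libraries per group. The difference was 1.93 ± 0.12 (SE; limma adjusted p = 1.74e-05) at E9.5 and 0.90 ± 0.14 (limma adjusted p = 0.00552) at E13.5 with 1Runx1. With 2Runx1 at E13.5 it was 0.93 ± 0.14 (limma adjusted p = 0.0347), a call that the replicate block (limma adjusted p = 0.0535) and limma-voom on recovered reads (adjusted p = 0.0516) each ended. In liver, where the region was not listed, Alox5 stayed at or below 0.0790 RPKM in every library.

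The region nearest to Ltc4s lay 23.7 kb from its start, inside Maml1 (chr11:50262160-50262296), with fold enrichments of 6.50 and 5.62 with 1Runx1 and no E13.5 2Runx1 peak. Ltc4s RNA was 1.15 and 0.759 RPKM in E9.5 Ctrl, 4.64 and 4.69 in E9.5 1Runx1, 0.433 in E13.5 Ctrl, 4.21 and 4.53 in E13.5 1Runx1 and 2.40 and 3.81 in E13.5 2Runx1. The difference was 1.54 ± 0.14 (SE; limma adjusted p = 0.000417) at E9.5 and 1.91 ± 0.18 (limma adjusted p = 0.000346) at E13.5 with 1Runx1. With 2Runx1 at E13.5 it was 1.5 ± 0.18 (limma adjusted p = 0.00809), a call lost with limma-voom on recovered reads (adjusted p = 0.0781). Unlike the Alox5 region, this one was listed at E13.5 with 1 copy alone, in the longer list (100268 peaks against 80857 with 2Runx1). Ltc4s RNA was above Ctrl with either copy number, and the part of the region in it was not tested.

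**Figure D5:**
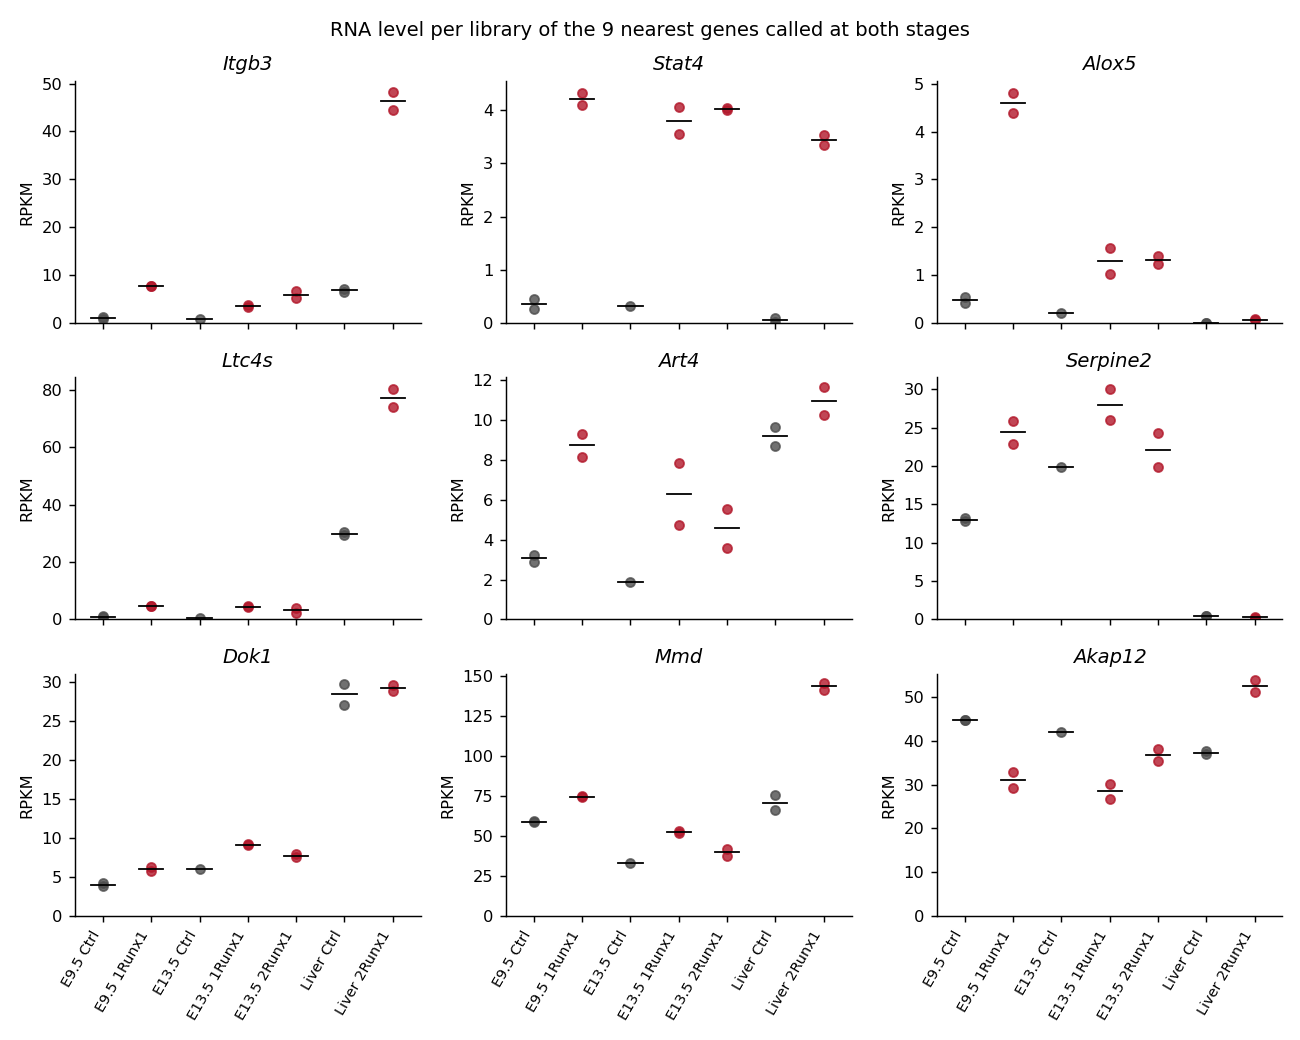
RNA level in RPKM of each library for the 9 nearest genes called at both stages (points, red with added Runx1; bars, group means; 2 libraries per group and 1 for E13.5 Ctrl). Stat4 lies between 3.36 and 4.33 in every library with added Runx1, while Alox5 is highest at E9.5 and near 0 in liver.

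Smaller changes made up the rest of the 9. Art4, the ADP-ribosyltransferase that carries a blood group antigen, had a region inside the gene 5.23 kb from its start, and its RNA was 2.89 and 3.22 RPKM in E9.5 Ctrl, 8.15 and 9.32 in E9.5 1Runx1, 1.89 in E13.5 Ctrl and 4.72 and 7.85 in E13.5 1Runx1. The E9.5 difference of 1.26 ± 0.20 (SE; limma adjusted p = 0.0148) lost its call without any 1 of the 4 E9.5 libraries, with limma adjusted p from 0.0577 to 0.155 and differences from 1.17 to 1.35. Serpine2, a thrombin and protease inhibitor whose region lay 46.8 kb away, rose from 13.2 and 12.8 to 22.9 and 25.9 RPKM at E9.5 (0.86 ± 0.10). At E13.5 with 1Runx1 it rose from 19.8 to 30.0 and 25.9 RPKM (0.47 ± 0.13). The E13.5 call of Serpine2 was kept in 3 of 8 alternatives and was lost without E13.5 1Runx1 replicate 1 (0.37). The Serpine2 libraries with 2Runx1, at 19.9 and 24.3 RPKM, were near Ctrl.

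Dok1, an adaptor that restrains tyrosine kinase signalling, went from 3.77 and 4.24 to 5.77 and 6.27 RPKM at E9.5 (0.49 ± 0.07) and from 6.06 to 9.17 and 9.03 at E13.5 (0.52 ± 0.09). Its region, inside M1ap and 20.7 kb from its start, was open in both liver lists and not with 2Runx1 at E13.5. The E9.5 call of Dok1 was lost without E9.5 1Runx1 replicate 2 (0.44, limma adjusted p = 0.120) or E9.5 Ctrl replicate 1 (0.42, limma adjusted p = 0.145). Mmd, a membrane protein of macrophage differentiation, went from 58.5 and 59.4 to 74.2 and 74.9 RPKM at E9.5 (0.33 ± 0.07) and from 33.3 to 51.6 and 52.8 at E13.5 (0.64 ± 0.08), with the E9.5 call lost without any 1 of the 4 E9.5 libraries (0.32 to 0.34, limma adjusted p from 0.136 to 0.308). Akap12, a scaffold for protein kinase A that restrains vessel permeability, was the one that fell, from 44.9 and 44.8 to 32.9 and 29.1 RPKM at E9.5 (−0.52 ± 0.07) and from 42.0 to 30.2 and 26.8 at E13.5 (−0.55 ± 0.09). In liver Akap12 went the other way, from 37.7 and 37.0 to 54.0 and 51.2 RPKM (0.48 ± 0.07, limma adjusted p = 0.00073). Its E9.5 call was lost without E9.5 1Runx1 replicate 2 (−0.44, limma adjusted p = 0.0819), E9.5 Ctrl replicate 1 or E9.5 Ctrl replicate 2 (−0.52 in each, limma adjusted p = 0.0913 and 0.0909).

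Some of the nearest genes were called at E9.5 and not at E13.5 with 1Runx1. Plcg2, a phospholipase of immune receptor signalling chosen after its values were seen, went from 6.47 ± 0.230 RPKM (SD, n = 2) to 14.9 ± 1.85 (SD, n = 2) at E9.5 (1.08 ± 0.11 SE, limma adjusted p = 0.000628) and from 2.19 to 2.88 and 3.32 at E13.5 (0.36 ± 0.13). Its E9.5 call was lost when the 4 E9.5 libraries were fitted alone (limma adjusted p = 0.0502). Ptgs1, the constitutive cyclooxygenase, went from 8.46 and 8.62 to 13.8 and 11.0 RPKM (0.48 ± 0.10), a call lost without E9.5 1Runx1 replicate 1 (0.33, limma adjusted p = 0.167) or either E9.5 Ctrl library (0.47 and 0.49, limma adjusted p = 0.307 and 0.246). Mdm2, the ubiquitin ligase of p53, went from 23.1 and 24.6 to 32.9 and 40.5 RPKM (0.59 ± 0.09), a call lost without E9.5 1Runx1 replicate 2 (0.45, limma adjusted p = 0.0821) or either E9.5 Ctrl library (0.55 and 0.64, limma adjusted p = 0.154 and 0.0878). The 5 lower genes at E9.5, named after their values were seen, were Mir1931, 4931406H21Rik, Akap12, Ccnd1 (cyclin D1) and Prr5l. Without E9.5 1Runx1 replicate 2, or without either E9.5 Ctrl library, limma called 0 nearest genes lower, with 38, 51 and 47 at an unadjusted p under 0.05. The 1 gene lower with 2Runx1 at E13.5 was Mospd1, at 37.4 RPKM in Ctrl and 27.2 and 25.2 with 2Runx1 (−0.49 ± 0.07).

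The regions were spread thinly over genes: 175 genes were nearest to 2 or more and 23 to 3 or more. Nfib, a nuclear factor I transcription factor, had the most, with 5 regions across chr4 between 24.9 and 96.2 kb from its starts, and all 5 were open with 2Runx1 at E13.5. Pik3r1, the regulatory subunit of PI3 kinase, Rbfox2, a splicing factor, and Bean1 had 4 each. Also among the genes with the most regions (ties ordered by the highest fold) were Plcl2, 4921525O09Rik, Pitx1, Tead1 and Gm5122, with 3 each. Of these 9 genes 5 were tested, the lowest limma adjusted p in an embryonic comparison was 0.305 (Pik3r1 at E13.5 with 1Runx1), and their log2 differences at E9.5 ran from −0.14 (Tead1, a transcription factor of the Hippo pathway) to 0.08 (Pik3r1). Nfib was at 5.28 and 5.28 RPKM in E9.5 Ctrl and 5.18 and 5.58 in E9.5 1Runx1. In liver with 2Runx1, Nfib was higher (0.30, limma adjusted p = 0.0141) and Plcl2, a phospholipase C-like protein, was lower (−0.45, limma adjusted p = 0.00936). Nfib lost that call without any 1 of the 4 liver libraries (0.28 to 0.31, limma adjusted p from 0.0606 to 0.083), and Plcl2 without Liver 2Runx1 replicate 2 (−0.36, limma adjusted p = 0.0861) or Liver Ctrl replicate 2 (−0.43, limma adjusted p = 0.0587).

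Gene lists relevant to the factor and the tissue were described by how many of their genes were nearest to a region, beside 1719 of 25147 placed genes (6.84%). Those shares are descriptions. Of 10 RUNX family genes and partners, 4 had one: Tle4, Cbfb, Runx3 and Tle3. The Runx3 region lay inside the gene, 1.26 kb from a start (fold 3.03 at E9.5), with Runx3 RNA at or below 0.110 RPKM in every library, and none was nearest to Runx1. Cbfb, the partner subunit, had a region 12.5 kb away and log2 differences of 0.08 at E9.5 and 0.00 at E13.5 with 1Runx1.

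Of 23 hemogenic transcription factors, 5 had a region: Hlf, Fli1, Ikzf2, Mecom and Etv6. Hlf, a factor of blood stem cells, had 2 of them inside the gene with fold enrichments of 9.75 and 4.97 at E9.5, both open with 2Runx1 and both under H3K4me1 regions of Ctrl and 2Runx1; Hlf did not pass the filter on low values. Fli1, an ETS factor of endothelium and blood, had 2, and its RNA hardly differed (0.02 ± 0.05 SE at E9.5). Of 24 endothelial identity genes, 5 had one: Ets1, Sox17, Vwf, Cdh5 and Emcn. Cdh5, which encodes VE-cadherin, had 3 regions of fold 2.94 to 3.72. It was called higher at E13.5 with 1Runx1 (148.3 RPKM in Ctrl, 182.2 and 168.0 with 1Runx1, 0.24 ± 0.06). The Cdh5 call was kept in 4 of 8 alternatives and was lost without E13.5 1Runx1 replicate 1 (0.18). Sox17, an arterial and hemogenic factor, had 2 distal regions of fold 11.2 and 4.13, 84.7 and 47.5 kb from its start, with a log2 difference of −0.32 at E9.5 and 0.25 at E13.5, neither called.

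Of 24 genes for TGFβ ligands, receptors and SMADs, 4 had a region (Smad5, Tgfb3, Tgfbr2 and Skil), and of 26 TGFβ target genes 3 did (Ltbp2, Ccn2 and Skil), with limma calling 0 at E9.5 or at E13.5 with 1Runx1 in either list; at an unadjusted p under 0.05 there were 1 and 2 genes in the first list and 1 and 1 in the second. Of 14 enzymes of leukotriene, prostaglandin and PAF synthesis 3 did (Alox5, Ltc4s and Ptgs1). All 3 were called higher at E9.5 (background 0.861% of all genes tested), and 2 of the 3 at E13.5 with 1Runx1 (background 6.34%). The list was chosen with earlier results of these data known, so these counts are a description and no test of it. The E9.5 call of Ptgs1 was lost in 8 of 10 alternatives. Of 19 integrin and adhesion genes 4 did: Itgb2, Itgb3, Itgb1 and Itga9. Itgb2, the leukocyte integrin subunit, had a region with a fold of 6.14 at E9.5, 0.065 kb from a gene end taken as a start and under no promoter window. It did not pass the filter. Of 18 leukocyte genes 4 did (Hcls1, Laptm5, Vav1 and Inpp5d). Laptm5, a lysosomal membrane protein, was called higher at E13.5 with 1Runx1 (23.8 RPKM in Ctrl, 40.9 and 32.1 with 1Runx1). The Laptm5 call was kept in 3 of 8 alternatives and was lost without E13.5 1Runx1 replicate 1 (0.42).

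Of 23 cytokine and signalling genes 3 did (Stat4, Kit and Tnfrsf1b). Kit, the receptor used in the sort, had a region 94.6 kb from its start. Its RNA was 25.6 RPKM in E13.5 Ctrl and 39.4 and 39.2 in E13.5 1Runx1 (0.60 ± 0.16). The call of Kit was kept in 1 of 8 alternatives and was lost without either 1Runx1 library (0.60 in each). Of 20 p53 target genes 4 did (Mdm2, Plk2, Perp and Btg2), of 18 Notch and arterial genes 5 (Sox17, Cxcr4, Gja5, Jag1 and Nrarp), of 18 megakaryocyte and platelet genes 3 (Itgb3, F2rl2 and Vwf) and of 15 venous and sinusoidal genes 1 (Emcn). No region was nearest to any of 18 macrophage and Fc receptor genes, 15 erythroid genes or 15 hepatocyte genes.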

How the data were processed

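ATAC-seq and H3K4me1 peaks were deposited as MACS2 lists on mm10, which is GRCm38, 1 per group with replicates combined. The authors' peak lists hold a display score, a fold enrichment (a ratio), −log10 q values (a −log10 p column was not used) and, for ATAC-seq, a summit offset. RNA was deposited by the authors as RPKM per gene. The submitters' processing notes name bcl2fastq 2.20, Trim Galore 0.6.4, FastQC, Bowtie2 2.3.5.1, SAMtools 1.1, MACS2 2.1.4, deepTools 3.3.0, STAR 2.7.3a, Subread 2.0.0, featureCounts and edgeR, without their order. No source used here says whether reads were shifted for transposase binding.

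Overlap meant at least 1 shared base. Genes were placed on GRCm38.p6 by symbol (25040) or synonym (107), with 92 left out. The 5′ ends came from the RefSeq promoter table, and for 651 regions whose nearest gene it lacked, both gene ends served as starts. Shares within 1 kb of a start used the 5′ ends of the promoter table alone. Exons and introns were not annotated. RNA was tested with limma 3.58.1 (R 4.3.3) on log2(RPKM + 1) for 12546 genes with at least 1 RPKM in 2 or more libraries, as 7 group means over 13 libraries (6 residual degrees of freedom, 10.3 after moderation), with Benjamini-Hochberg adjustment, called under 0.05, over all genes in each of 5 comparisons. E13.5 Ctrl, with 1 library, was assumed to vary like the other groups. The labels do not say that replicates were separate animals, and the spread behind the p-values may therefore be technical only. The fit was tested on simulated data. Whole reads were recovered for 100% of 20720 genes above 0 (within 0.001 of a whole number), and limma-voom on them was an added alternative.

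Named regions were the 10 highest by E9.5 fold, those near genes called in the same direction at both stages, the 10 genes with most regions, and genes of 16 lists. Exceptions are marked, and 1 gene and its regions are not reported here. Regions and lists were chosen with earlier results of these data known. The RUNX motif in the regions themselves was not analysed here, since it needs a genome sequence.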

Additional observations from a re-analysis of the deposited data

Results flagged for a closer look

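Among the named genes, 2 had a 1-copy RNA difference that itself differed between the stages, by the interaction term of the fit over all genes. For Alox5 the difference at E13.5 was lower than that at E9.5 by a log2 change of −1.02 ± 0.18 (SE, limma adjusted p = 0.0265), and 6 of 12 alternatives kept that call. For Itgb3 the change was −0.78 ± 0.17 (SE, limma adjusted p = 0.0467), and none of 12 alternatives kept it, with values from −0.87 to −0.54. Every 1Runx1 library was above every Ctrl library of its stage for both genes, with 2 against 2 libraries at E9.5 and 2 against 1 at E13.5. How many of all genes separate in this way was not counted. Both values rest on the single E13.5 Ctrl library, and without E9.5 1Runx1 replicate 2 the Alox5 change was −0.97 (limma adjusted p = 0.0919), without E9.5 Ctrl replicate 1 −1.09 (0.0815) and without E9.5 Ctrl replicate 2 −0.96 (0.111).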

How the results depend on the processing

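Of 2332 regions, the count stayed within 1.5 times except when both 1Runx1 peaks had to reach −log10 q of 10, which left 316. Of those 316, 89.6% overlapped an E13.5 2Runx1 ATAC peak, 6.96% a Liver 2Runx1 peak, 44.0% an H3K4me1 region of 2Runx1 and 11.1% one of Ctrl, 1.27% lay within 1 kb of a start, and 70.0% of 10 promoter windows held TGTGGT. With no Ctrl peak within 500 bases, 32.3% and 9.62% overlapped H3K4me1 regions of 2Runx1 and Ctrl, and 1.19% lay within 1 kb of a start. With a stricter overlap (50% of the shorter interval), H3K4me1 of 2Runx1 held 35.3%. TGTGGTT in place of TGTGGT gave 23.9% of windows. The motif search at peak centres and over whole peaks was not run.

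Among nearest genes, with a start within 10 kb, which leaves fewer genes, higher and lower calls were 10 and 2 at E9.5, 24 and 11 at E13.5 with 1Runx1, 2 and 0 with 2Runx1 (15 lower at an unadjusted p under 0.05), 62 and 34 in liver, and 3 and 4 for the difference between stages. For all nearest genes, the libraries of the compared stages alone gave 8 and 1 at E9.5 (0.766% and 0.0957%, background 0.231% and 0.0638%). At E13.5 they gave 0 and 0 with 1Runx1 (background 0.0319% and 0.00797%). With 2Runx1 they gave 0 and 0 (background 0% and 0%), with 36 higher and 21 lower at an unadjusted p under 0.05. Between stages they gave 2 and 1 (0.191% and 0.0957%, background 0.159% and 0.231%). With limma-voom on all libraries, 60 were lower with 1Runx1 and 3 with 2Runx1 at E13.5 (5.74% and 0.287%, background 6.15% and 0.279%). Without a filter, 3 were lower at E9.5, 9 lower at E13.5 with 2Runx1 and 9 higher between stages. The shares were 0.185%, 0.555% and 0.555%, against 0.140%, 0.574% and 0.502% of all genes. A pseudocount of 0.1 gave 8 and 4 between stages (0.766% and 0.383%, background 0.654% and 0.518%). Nearest gene bodies gave 3 lower at E9.5 (background 0.327%). The causes were not tested.

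Leaving out 1 library gave 7 to 13 higher and 0 to 2 lower at E9.5, 44 to 62 and 28 to 30 at E13.5 with 1Runx1, 4 to 16 and 6 to 10 with 2Runx1 (16 and 10 without E13.5 2Runx1 replicate 1), 119 to 130 and 53 to 70 in liver, and 0 to 22 and 1 to 11 between stages. Same-numbered libraries correlated by −0.0611 to 0.107 in their deviations from group means, mostly between groups of different stages. Within a stage the values were −0.0611 at E9.5, −0.0468 at E13.5 (1Runx1 with 2Runx1) and 0.107 in liver. With so few libraries per group, this cannot show whether the numbers pair the samples. With the replicate block, 15 and 4 nearest genes were called at E9.5 (1.44% and 0.383%, background 0.765% and 0.279%). At E13.5 there were 54 and 28 with 1Runx1 (5.17% and 2.68%, background 4.90% and 3.54%). With 2Runx1 there were 4 and 1 (0.383% and 0.0957%, background 0.120% and 0.191%). Liver had 170 and 110 (16.3% and 10.5%, background 16.9% and 7.74%). Between stages there were 12 and 8 (1.15% and 0.766%, background 1.01% and 1.33%). The block kept 55 of 69 calls of named genes. No named call changed direction under any alternative. Peak lists combine replicates, so no replicate could be left out of a peak result.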
